A study of Danio rerio with 2 samples.

Results

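The genes of the proteasome were followed through scRNA-seq of zebrafish cranial neural crest cells (NCCs). Members were chosen by their symbol, as all features named psma to psmg with a number, plus *pomp*, and 58 of 25434 features matched. The family was taken up because earlier results of these same 2 libraries had *psmb5*, *psma8*, *psmd14* and *pomp* lower in YM-treated cells, so the difference between treatments is given as a description, with no test.

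The study asked how blocking the Gq/11 family of G proteins alters jaw patterning. Embryos carried the transgenes Tg(sox10:mRFP);Tg(fli1a:EGFP), in which *sox10* sequence drives mRFP in neural crest and *fli1a* sequence drives EGFP in arch crest and endothelium, and both groups share them. They were treated from 16 to 36 hpf with DMSO as the vehicle or with 100 µM YM-254890 (YM), an inhibitor of Gq/11 dissolved in DMSO, at 70 embryos a treatment. The labels give the control as 10% DMSO and state no DMSO percentage for the YM group, and the methods name a far lower upper limit for embryo media, so whether the vehicle was matched could not be settled here. After 10 were set aside, the heads of the rest were pooled at 36 hpf and double-labelled cells were sorted. With 1 droplet library of pooled embryos for each treatment, differences between treatments could not be set against replicates and were not tested.

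The proteasome is the protease complex that degrades proteins tagged with ubiquitin. Its core particle is a barrel of stacked rings, the outer rings built of alpha subunits that gate the entrance and the inner rings of beta subunits, of which *psmb5*, *psmb6* and *psmb7* encode the catalytic members. The regulatory particle caps the core, with a base that holds the ATPases (psmc genes) and a lid that removes ubiquitin. In mammals, immune cells can swap the catalytic subunits for inducible counterparts, which makes the immunoproteasome. Dividing and growing embryonic cells express the constitutive genes throughout.

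By role, the members comprised 9 alpha ring genes, 7 constitutive beta ring genes, 7 inducible or tissue-restricted beta genes, 11 base genes and 9 lid genes. A further 3 encode chaperones that assemble the base, 4 encode chaperones of the core (*psmg1*, *psmg2*, *psmg3* and *pomp*) and 6 encode activators or an inhibitor. The symbols *psmc3ip*, a cofactor of meiotic recombination, and *psme3ip1*, a partner of the activator PSME3, matched the rule but name no subunit. In what follows the core particle is the 16 alpha and constitutive beta genes, and the regulatory particle the 20 base and lid genes.

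After calling and filtering, 3612 DMSO and 4429 YM cells were kept, with a median of 5866 and 6527 unique molecular identifiers (UMIs) per cell and 22166766 and 30430258 UMIs in all. Of the cell barcodes, 5 occurred in both libraries. Clustering without the members gave 6 classes with positional markers of cranial crest, which held 96.1% of DMSO and 96.3% of YM cells, and small epidermal-, macrophage-, neutrophil-, erythroid- and pigment-like classes. A further 48 cells, with the endothelial gene *cdh5*, stayed unnamed, and a muscle-like cluster held 6 YM and 0 DMSO cells. Both are part of the sums over all kept cells. Levels are CPM, the UMIs of a gene scaled to the same UMI total in each sum of cells. The 3′ counts register captured molecules and are not divided by gene length. The 95% intervals in parentheses account for counting error alone.

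Proteasome transcripts were abundant in every library and class. The 36 core and regulatory genes together took 0.453% of the DMSO UMIs and 0.381% of the YM UMIs. The most abundant member in both was *pomp*, the chaperone that matures the core particle, at 294.8 CPM in DMSO and 246.2 CPM in YM cells. The catalytic beta gene *psmb7* followed at 266.3 and 239.7 CPM, and the alpha gene *psma3* at 243.2 and 209.8 CPM. Alpha and beta ring genes lay between 89.0 and 266.3 CPM in DMSO cells, apart from *psma6l*, which had 0 UMIs in DMSO and 2 in YM cells. Base genes were lower, from 18.2 CPM for *psmd2* to 165.9 CPM for *psmd1*, both of which encode the large scaffold subunits of the base. Lid genes ran from 50.6 CPM for *psmd11b* to 150.2 CPM for *psmd8*. *psma8*, named after the germ-line alpha subunit of mammals, reached 226.0 and 187.7 CPM, and no feature named *psma7* was among the members.

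**Figure D1:**
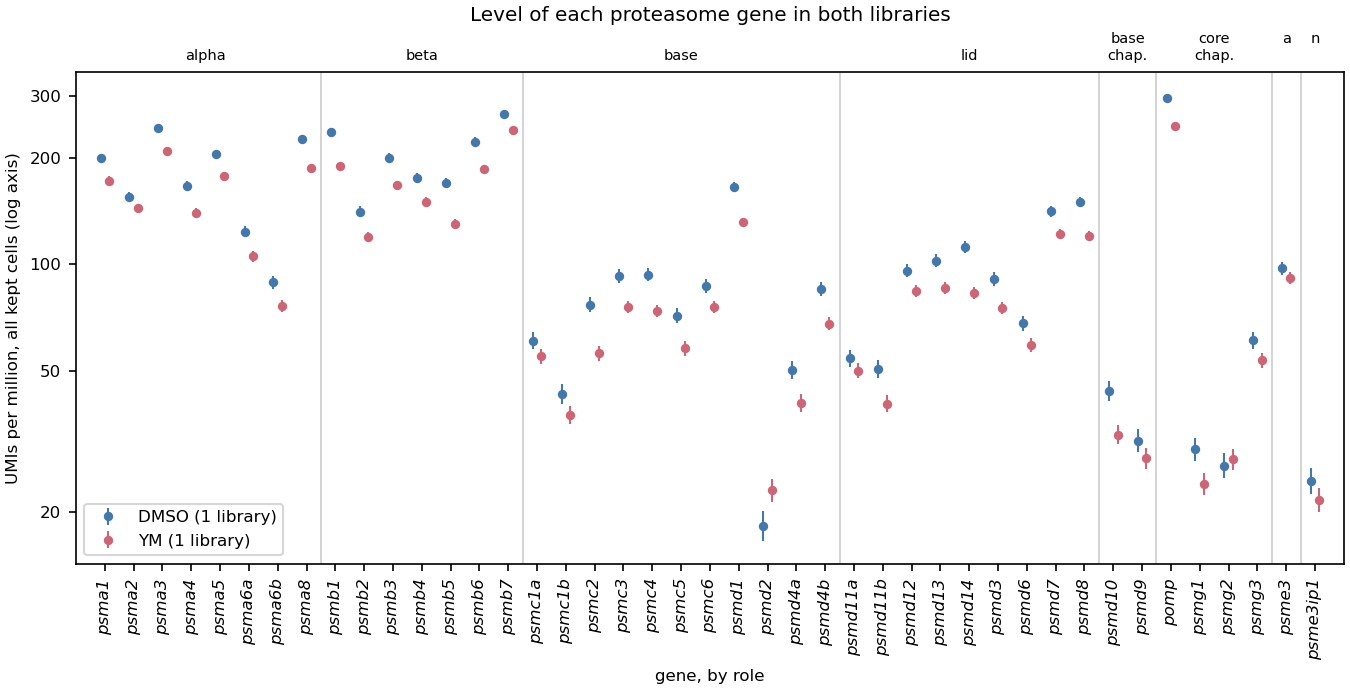
Level of the 43 members with a mean of at least 20 CPM, in CPM of all kept cells on a log axis, for the DMSO and the YM library. Points are the 1 library of each treatment and bars exact 95% counting intervals, with a for activator and n for no subunit. The alpha and beta ring genes and *pomp* sit highest, and in nearly all genes the YM point lies under the DMSO point, *psmd2* and *psmg2* excepted.

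Most members with almost no transcripts were those of the immunoproteasome and other alternative beta genes. *psmb8a* and *psmb13a*, inducible or alternative beta genes, had 0 UMIs in both libraries. *psmb9a* had 1 UMI in DMSO and 4 in YM cells, *psmb12* had 5 in each, and *psmb11a* and *psmb11b*, paralogs of the thymic beta gene of mammals, had 0 in DMSO and 1 each in YM cells. Against the catalytic gene *psmb5*, with 3637 and 3820 UMIs in the crest classes, a count of 0 for *psmb8a* allows a share of the pair of up to 0.0825% in DMSO and 0.0785% in YM cells. Only *psmb10* was detected broadly, at 8.30 CPM (184 UMIs) in DMSO and 6.54 CPM (199 UMIs) in YM cells. Its share of the *psmb7* and *psmb10* pair in crest classes was 3.04% (2.62 to 3.51) and 2.69% (2.33 to 3.09).

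The immune classes had too few UMIs to be set apart from crest cells in *psmb10*. In macrophage-like cells (29 DMSO and 28 YM cells) *psmb10* had 0 and 1 UMIs, and in neutrophil-like cells (30 and 21 cells) 1 and 0 UMIs. Its share of the *psmb7* and *psmb10* pair was 2.78% (0.0703 to 14.5) in YM macrophage-like and 2.38% (0.0603 to 12.6) in DMSO neutrophil-like cells, whose intervals contain the crest values. A UMI of *psmb10* occurred in 4.84% of DMSO and 4.31% of YM crest cells, and in 2.61% (2.08 to 3.24) and 2.24% (1.80 to 2.76) once each cell was thinned to 3500 UMIs. It occurred in 0 of 11 and 0 of 16 erythroid-like cells, but these zeros allow up to 28.5% and 20.6% (Clopper-Pearson) and cannot separate the crest shares from background. The activator genes *psme1* and *psme2*, partners of the inducible subunits in mammals, had 2 and 4 UMIs and 7 and 5 UMIs. At this depth no non-crest class could be said to carry an immunoproteasome or to lack one. In the crest classes *psmb8a* stayed under the limits above. There *psmb9a* was 0.021% (0.00053 to 0.12) of its pair with *psmb6* in DMSO and 0.073% (0.020 to 0.19) in YM cells. Transcripts of these 2 genes were thus at most a trace in crest cells, while *psmb10* was detected, and protein was not measured.

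Between treatments, the level of nearly all members was lower in YM than in DMSO cells. Of 58 members, 43 had a mean of at least 20 CPM, and 41 of these were lower, where 61.6% of all 3778 genes past the same level were lower. By at least 0.25 on the log2 scale, 21 members were lower, against 7.78% of all genes, and 1 was higher, against 3.23%. The median log2 ratio of YM to DMSO of the 43 members was -0.23, beside -0.041 for all genes. The 21 include *psmb5*, *psma8*, *psmd14* and *pomp*, whose lower values led to the choice of the family. Part of the excess over all genes was therefore fixed by that choice.

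In the core particle, all 15 genes past the level were lower and 6 of them by at least 0.25, beside 61.6% and 7.78% of all genes. The 6 include *psmb5* and *psma8*, which had led to the choice of the family. The summed level was 2821 CPM in DMSO and 2398 CPM in YM cells, a log2 ratio of -0.23 (-0.25 to -0.22). *psmb5*, which encodes the chymotrypsin-like catalytic subunit, stood at 170.3 CPM in DMSO and 130.0 CPM in YM cells, a log2 ratio of -0.39 (-0.46 to -0.33), the lowest ratio among the core genes. The other catalytic genes differed less, with *psmb6* at 222.7 and 186.0 CPM (-0.26) and *psmb7* at -0.15 (-0.20 to -0.10). Alpha ring genes lay close together, from -0.27 for *psma8* to -0.20 for *psma5*, with *psma2* at -0.10 (-0.17 to -0.038) the exception. *psmb1*, a beta gene without catalytic activity, was at 237.2 and 190.0 CPM (-0.32).

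In the regulatory particle, 19 of 20 genes were lower and 12 of them by at least 0.25, beside the same 61.6% and 7.78% of all genes. The 12 include *psmd14*, which had also led to the choice. The sum went from 1712 CPM in DMSO to 1416 CPM in YM cells, a log2 ratio of -0.27 (-0.29 to -0.25). Among the base ATPases, *psmc2* was lowest, at 76.9 CPM in DMSO and 56.1 CPM in YM cells (-0.46, -0.55 to -0.36), and the ratio ran up to -0.15 for *psmc1a*. The ubiquitin receptor genes *psmd4a* and *psmd4b* were at -0.31 and -0.33. In the lid, *psmd14*, which encodes the deubiquitinase, was at 112.3 CPM in DMSO and 83.3 CPM in YM cells (-0.43, -0.51 to -0.35), while *psmd11a* was at -0.12 (-0.23 to -0.0056).

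Assembly genes followed the same direction with 1 exception. *pomp* had a log2 ratio of -0.26 (-0.31 to -0.21), *psmg1* was at 30.0 and 24.0 CPM (-0.32) and *psmg3* at 61.0 and 53.6 CPM (-0.19), whereas *psmg2*, the partner of *psmg1* in one chaperone, was at 27.0 and 28.2 CPM (0.062, -0.090 to 0.22). *psmg2* was lower in 3 of 12 alternatives, over which its ratio ran from -0.039 to 0.13. Of the base chaperones, *psmd10* was at 43.9 and 33.0 CPM (-0.41) and *psmd9* at 31.8 and 28.3 CPM (-0.17). *psmd5* did not pass the level, at 14.7 and 12.3 CPM. The activators differed little, with *psme3*, the nuclear activator, at 97.6 and 91.5 CPM (-0.094, -0.18 to -0.012) and *psme4b* at 18.1 and 18.6 CPM. The inhibitor gene *psmf1* stood at 7.90 and 6.47 CPM.

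**Figure D2:**
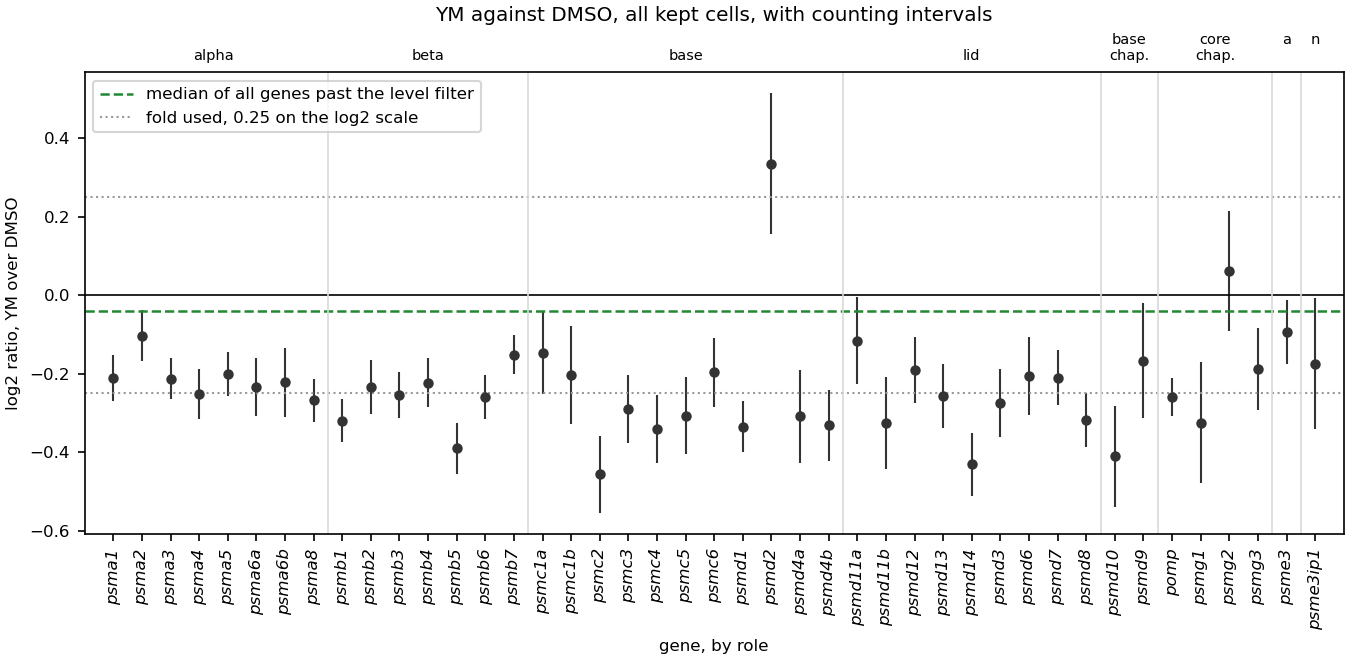
Ratio of YM over DMSO on the log2 scale for the 43 members with a mean of at least 20 CPM, by role, with exact 95% counting intervals (1 library per treatment), a for activator and n for no subunit. The dashed line is the median of all genes at -0.041 and the dotted lines the fold of 0.25, and 41 members lie below 0.

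Other gene groups moved beside these values. Ribosomal protein genes summed to 439052 CPM in DMSO and 452356 CPM in YM cells (log2 ratio 0.043). Genes of the mitochondrial genome were lower in YM cells (log2 ratio of the sums -0.14), immediate early genes were higher (0.48), and heat shock genes moved in both directions. Their sum was level (0.013), at 2814 and 2840 CPM, but *hspa8* made up 2734 and 2772 CPM of it. Of the 3 heat shock genes past the level, *hsp90aa1.2* (-0.42) and *dnajb1b* (-0.34) were lower by at least 0.25. Under the level, *hsp90aa1.1* had 5 UMIs in DMSO and 186 in YM cells. These sums include the muscle-like cells, 6 in YM and 0 in DMSO, and their part in the *hsp90aa1.1* count was not tested. The libraries also differed in free RNA, estimated at 2.49% of the UMIs in DMSO and 0.491% of those in YM. The part of the other gene groups in the lower proteasome levels was not tested. With free RNA subtracted, 20 members were lower by at least 0.25, beside 7.84% of all genes. Leaving ribosomal and mitochondrial genes out of the total moved the core median to -0.20, and TMM scaling moved it to -0.17, with the median of all genes then at 0.023. Under TMM scaling 11 members were lower by at least 0.25, beside 3.73% of all genes.

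Depth and phase were matched next, because YM cells were deeper. Within crest cells of 5000 to under 7000 UMIs, the 36 genes summed to 4558 CPM in 1303 DMSO cells and 3956 CPM in 1434 YM cells (-0.20, -0.23 to -0.18). In cells under 3500 UMIs the sums were 5118 and 4038 CPM (-0.34), and in cells of 10000 UMIs and over 4462 and 3634 CPM (-0.30). All 5 ranges of depth were lower in YM cells, as were cells called G1 (-0.27), S (-0.27) and G2M (-0.24). In both libraries the sum was highest in cells of 3500 to under 5000 UMIs, at 5163 and 4238 CPM. G2M calls were made for 1535 of 3471 DMSO and 1574 of 4266 YM crest cells.

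**Figure D3:**
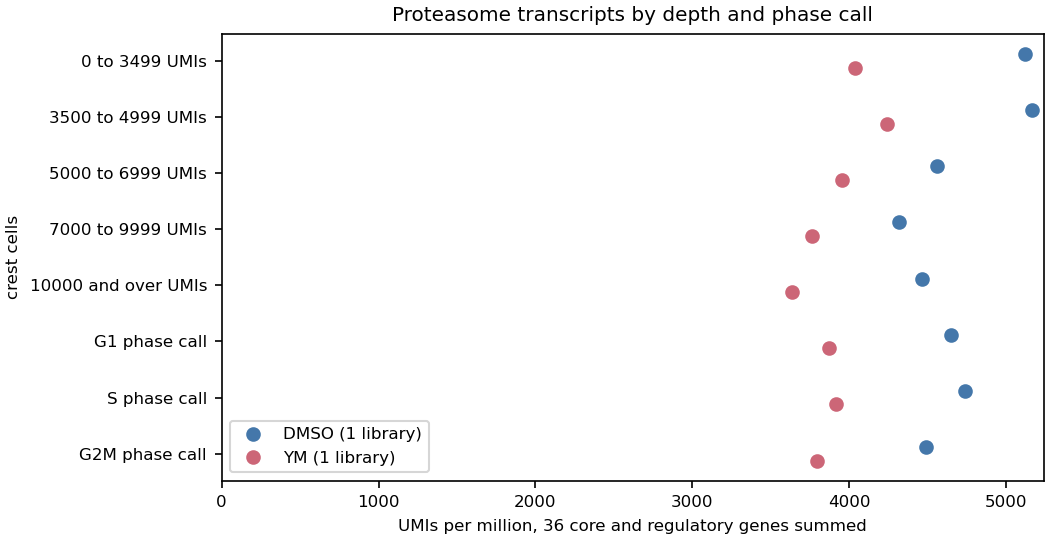
Summed CPM of the 36 core and regulatory genes in crest cells, by UMIs per cell and by phase call, in the DMSO and the YM library (1 library each). The YM point lies left of the DMSO point in every stratum, from 4038 against 5118 CPM in the shallowest cells to 3634 against 4462 CPM in the deepest.

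The difference was spread over cells. After thinning to 3500 UMIs per cell, which left out 370 DMSO and 344 YM crest cells, a cell held a median of 15 UMIs of the 36 genes in DMSO (quartiles 12 and 20) and 13 in YM (quartiles 10 and 17), so that the quartile ranges overlapped. A UMI of *psmb5* was found in 45.0% (43.3 to 46.8) of thinned DMSO crest cells and 36.1% (34.6 to 37.6) of YM cells, and in 61.5% and 55.0% of unthinned cells. For *psmd14* the thinned shares were 33.4% and 24.6%, and for *pomp* 63.7% and 57.3%. Lower values of *psmb5*, *psmd14* and *pomp* had led to the choice of the family, so their shares add no separate evidence. The spread over cells thus rests on the summed 36 genes, which include *psmb5*, *psma8* and *psmd14*. The intervals of these shares take cells as the unit, and cells of the same library are not replicates of a treatment. Erythroid-like cells, the class lowest in proteasome genes, had *psmb5* in 0 of 11 DMSO (0 to 28.5%) and 2 of 16 YM cells (1.55 to 38.4%) after thinning, at median depths of 14946 and 13176 UMIs before it, and the YM interval contains the crest share. Crest cells had median depths of 5846 and 6516 UMIs. Core and regulatory UMIs of the same thinned cell correlated at r = 0.41 over 3101 DMSO and r = 0.35 over 3922 YM crest cells, which share library and depth. A cell held a mean of only 10.2 core and 6.08 regulatory UMIs in DMSO, and 8.61 and 5.10 in YM. Counting error at such numbers limits r, and that limit was not computed, so how closely the particles vary together cannot be read from r.

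The only member higher by at least 0.25 was *psmd2*, and it cannot be read alone. *psmd2* (ENSDARG00000103190) had 404 UMIs (18.2 CPM) in DMSO and 699 UMIs (23.0 CPM) in YM cells, a log2 ratio of 0.33 (0.16 to 0.51). Its ratio was positive in all 6 crest classes, from 0.25 to 0.69. In frontonasal-like, gata3-positive-like and both kinds of dorsal arch cells, however, the counting interval spanned both signs, so a rise in each class is not shown. In dorsal arch 2-like cells its mean of 16.8 CPM was also under the level of 20 CPM. The features also hold PSMD2 in capitals (ENSDARG00000099653), which the rule passes over and which was looked up after the value of *psmd2* was seen. PSMD2 had 623 and 685 UMIs (28.1 and 22.5 CPM), a log2 ratio of -0.32 (-0.48 to -0.16), the opposite direction.

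Summed, both features were level, at 46.3 CPM in DMSO and a log2 ratio of -0.027 (-0.14 to 0.091) in YM cells. The share of the pair counted under *psmd2* was 39.3% in DMSO and 50.5% in YM cells. In the 6 crest classes this share ran from 36.2% to 40.8% in DMSO and from 49.6% to 54.4% in YM cells. These classes are parts of the same 2 libraries and are not replicates. In non-crest classes, with few UMIs of the pair, the share went both ways. It was 43.8% and 33.3% in epidermal-like and 33.3% and 66.7% in neutrophil-like cells, DMSO before YM. Whether reads were divided between near-identical copies was not tested, and the level of *psmd2* is uncertain. *psma2*, the alpha gene that differed least, has a like counterpart in capitals: *psma2* was at 155.0 and 144.3 CPM (-0.10), PSMA2 at 132.9 and 106.1 CPM (-0.33), and both together at -0.20 (-0.25 to -0.15), close to the other alpha genes.

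**Figure D4:**
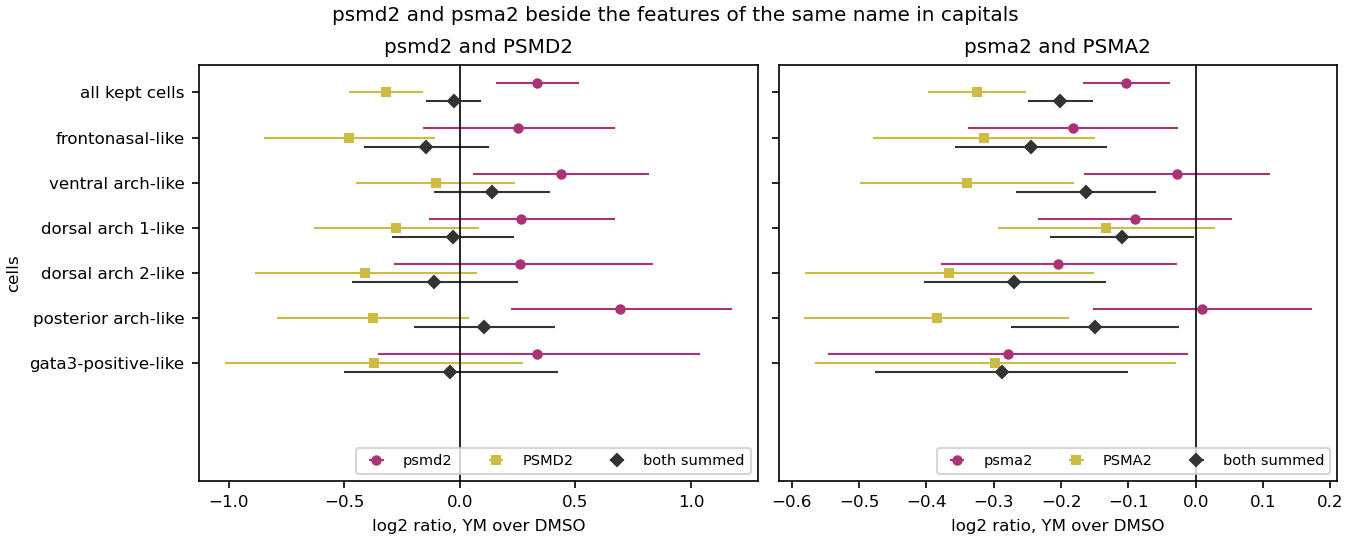
log2 ratio of YM to DMSO of *psmd2* and *psma2*, of the features of the same name in capitals, and of both summed, in all kept cells and the 6 crest classes, with exact 95% counting intervals (1 library per treatment). The *psmd2* point lies right of 0 and the PSMD2 point left of 0 in every row, but intervals of both cross 0 in several crest classes. The sum of both is -0.027 in all kept cells and runs from -0.15 to 0.14 in the crest classes.

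Paired genes of the same number with the endings a and b were split alike in both libraries in most cases. In crest cells *psma6b* was 41.8% of its pair in DMSO and 41.7% in YM cells, *psmc1b* was 41.7% and 40.7%, and *psmd4b* was 63.5% and 63.1%. *psmd11b* was 48.3% (46.2 to 50.4) and 44.4% (42.5 to 46.3), so that the intervals just met. In posterior arch-like cells it was 52.4% (46.7 to 57.9) and 36.7% (32.1 to 41.6), which did not overlap. *psme4b* made up 97.7% and 98.0% of the *psme4* pair. In macrophage-like cells *psmd4b* was 32.1% (15.9 to 52.4) and 37.9% (20.7 to 57.7) of its pair, under the crest cells in both libraries. Erythroid-like cells were as low, at 36.4% (10.9 to 69.2) and 28.6% (8.39 to 58.1), of which the YM interval lies under that of crest cells. In gata3-positive-like cells *psmd4b* was 63.0% (56.1 to 69.6) and 74.4% (67.9 to 80.2), and *psma6b* 34.6% (29.55 to 39.95) and 42.5% (37.1 to 48.0). For both genes the intervals of the libraries overlapped. These patterns by class were picked out after their values were seen. How many of all pairs and classes did not overlap was not counted.

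By cell class, the lower levels in YM cells recurred in each crest class. Counting members lower by at least 0.25, frontonasal-like cells had 31 of 43 (14.4% of all genes there), posterior arch-like cells 25 of 43 (14.8%) and gata3-positive-like cells 20 of 44 (23.5%). Dorsal arch 2-like cells had 16 of 42 (16% of all genes), ventral arch-like cells 11 of 44 (9.68%) and dorsal arch 1-like cells 11 of 43 (9.62%). Of the 42 members past the level in all 6 classes, 29 were lower in every class, where 17.5% of all 3091 genes were. The 29 again include *psmb5*, *psma8*, *psmd14* and *pomp*, for which the family was chosen.

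The size differed between classes, although no test of that can be made with 1 library each. The median log2 ratio of the core genes was -0.30 in frontonasal-like, -0.28 in posterior arch-like, -0.26 in gata3-positive-like, -0.22 in dorsal arch 2-like, -0.18 in dorsal arch 1-like and -0.14 in ventral arch-like cells, beside all-gene medians from -0.056 to -0.010. In sum, the core genes were at -0.30 (-0.34 to -0.27) in frontonasal-like and -0.15 (-0.19 to -0.12) in ventral arch-like cells. The all-gene medians of these 2 classes had the same order, at -0.056 and -0.010. The intervals cover counting error alone, and the share of all genes that differed as much between the 2 classes was not computed. Clusters of 1 class differed as well, with the summed log2 ratio at -0.26 and -0.11 in the clusters of dorsal arch 1-like cells, the latter led in part by histone genes, and -0.22 and -0.12 in those of ventral arch-like cells.

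*psmb5* was lower in each of the 6 classes, as were 17.5% of all 3091 genes. Lower values of *psmb5*, *psmd14* and *pomp* had led to the choice of the family. The 6 classes are also parts of the same 2 libraries, so the recurrence of these genes adds no separate evidence. *psmb5* stood at 176.6 and 128.6 CPM in frontonasal-like, 186.3 and 155.4 CPM in ventral arch-like and 160.5 and 113.6 CPM in dorsal arch 2-like cells, DMSO before YM. The gap was widest in gata3-positive-like cells, at 231.4 and 152.2 CPM (-0.60, -0.86 to -0.35). *psmd14* ranged from -0.56 in frontonasal-like to -0.34 in dorsal arch 2-like cells and *psmc2* from -0.53 to -0.40. *pomp* ranged from -0.34 in gata3-positive-like to -0.17 in ventral arch-like cells. *psmg1* was uneven, at -1.41 (-2.19 to -0.68) in gata3-positive-like cells, from 52 and 23 UMIs, and -0.0026 in ventral arch-like cells.

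Levels also differed between classes within each library. gata3-positive-like cells, which carried *gata3*, *sost*, *isl2a* and *fabp11a*, had the highest level, with core and regulatory genes at 0.584% of UMIs in DMSO and 0.490% in YM. Of the 34 core and regulatory genes past the level in all 6 classes, 26 were highest in this class in both libraries, where 13.4% of all genes were. Dorsal arch 2-like cells were lowest of the crest classes, at 0.391% and 0.337%, and 21 of the 34 genes were lowest there in both libraries, where 7.25% of all genes were.

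Against the other crest cells of the same library, the core sum in gata3-positive-like cells was higher by 0.34 on the log2 scale (0.30 to 0.39) in DMSO and 0.34 (0.30 to 0.39) in YM cells, and the regulatory sum by 0.41 in both. *pomp* reached 410.6 and 323.5 CPM there and *psmd1* 211.3 and 159.0 CPM. This class was also the shallowest in DMSO, at a median of 4508 and 5126 UMIs per cell, and low in ribosomal protein genes, at 40.9% and 42.7% of UMIs. Frontonasal-like cells had like values, 4614 and 4978 UMIs and 40.0% and 41.6%, with a proteasome share of 0.486% and 0.391%. As a share of UMIs without ribosomal and mitochondrial genes, gata3-positive-like cells stayed highest, at 1.01% and 0.877%, and dorsal arch 2-like cells lowest of the crest classes, at 0.755% and 0.666%. Thinned to 3500 UMIs, a gata3-positive-like cell held a mean of 20.5 and 17.6 proteasome UMIs and a dorsal arch 2-like cell 13.9 and 11.9.

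Most non-crest classes had a lower share of proteasome transcripts than every crest class of their library, with epidermal-like cells in YM the exception. The share was 0.362% and 0.299% of UMIs in macrophage-like, 0.349% and 0.290% in neutrophil-like and 0.328% and 0.256% in pigment-like cells, and it was lowest in erythroid-like cells, at 0.178% and 0.138%. Epidermal-like cells were the only class with a higher value in YM, at 0.323% and 0.354%, and in YM they stood above dorsal arch 2-like cells. The intervals of these 2 YM values overlapped, at 3537 CPM (3305 to 3782) and 3368 CPM (3318 to 3418). As a share of UMIs without ribosomal and mitochondrial genes the order in YM was reversed, at 0.595% in epidermal-like and 0.666% in dorsal arch 2-like cells. In epidermal-like cells the core genes summed to 1948 CPM in 47 DMSO cells and 2264 CPM in 48 YM cells (0.22, 0.045 to 0.39), while the regulatory genes were level, at 1283 and 1274 CPM.

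**Figure D5:**
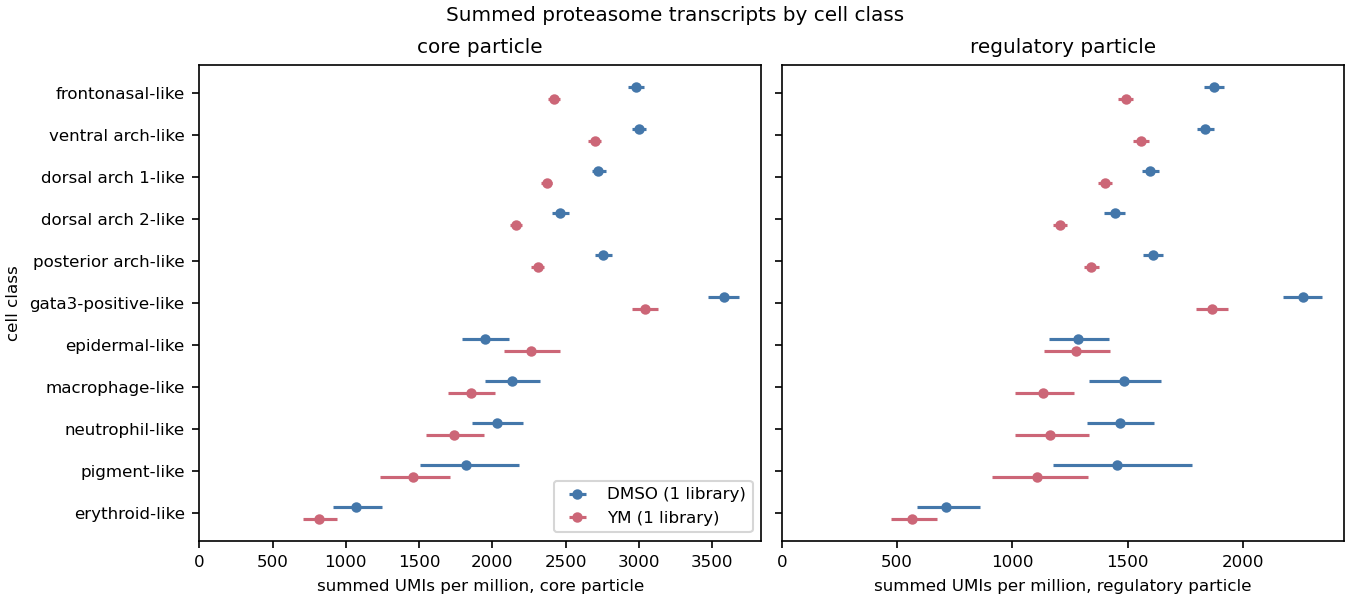
Summed CPM of the core particle (left) and regulatory particle genes (right) by cell class, in the DMSO and the YM library (1 library each), with exact 95% Poisson intervals. gata3-positive-like cells are highest and erythroid-like cells lowest in both libraries, and the YM point lies left of the DMSO point except for the core genes of epidermal-like cells.

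Core and regulatory genes were then set against each other. There were 1.65 (1.63 to 1.67) core UMIs for each regulatory UMI in DMSO and 1.69 (1.67 to 1.71) in YM cells. The regulatory sum leaves out PSMD2 and *sem1*, a small lid subunit outside the rule at 529.0 and 412.2 CPM. The core sum leaves out PSMA2. The ratio thus holds for the members alone, and it was not computed with these features added. In crest classes the ratio ran from 1.58 in gata3-positive-like to 1.71 in posterior arch-like cells in DMSO, and from 1.62 in frontonasal-like to 1.79 in dorsal arch 2-like cells in YM. It was higher in YM in 5 of the 6 crest classes, most in ventral arch-like cells, at 1.63 (1.59 to 1.68) and 1.73 (1.69 to 1.78), and lower in dorsal arch 1-like cells, at 1.70 and 1.69. Neutrophil-like cells had ratios of 1.38 (1.22 to 1.58) and 1.49 (1.25 to 1.78), and the intervals overlapped that of gata3-positive-like cells in DMSO (1.51 to 1.66) and in YM (1.55 to 1.71). After thinning, the ratios of all cells were 1.67 and 1.69, each within the counting interval of its own library before thinning. No interval was computed for the thinned ratios.

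Genes that act with the proteasome were mixed. Of 29 listed features, 17 passed the level, and 14 were lower in YM cells, 4 by at least 0.25, with a median of -0.085. Of all genes past the level, 61.6% were lower and 7.78% by at least 0.25, with a median of -0.041. *sem1*, a small lid subunit whose symbol the rule passes over, was at 529.0 and 412.2 CPM (-0.36, -0.40 to -0.32). The proteasome-bound deubiquitinase genes *usp14* and *uchl5* were at -0.31 and -0.31, and *vcp*, the segregase that feeds it, at 213.2 and 181.2 CPM (-0.23). The ubiquitin receptor gene *adrm1* was at -0.23. By contrast, the shuttle genes *rad23b* (-0.037) and *ubqln4* (-0.013) and the ubiquitin-activating enzyme gene *uba1* (-0.057) were near 0.

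Regulators and ubiquitin genes went apart. *nfe2l1b*, whose mammalian counterpart drives proteasome genes when the protease is short, was at 19.2 and 21.7 CPM (0.18, 0.0021 to 0.36), and *akirin2*, a nuclear import factor of the proteasome in human cells, at 94.7 and 89.3 CPM (-0.085). *ubb* was at -0.22 and *ubc* at -0.0100, while *rps27a*, which encodes ubiquitin fused to a ribosomal protein, was at 0.061, beside a log2 ratio of 0.043 for ribosomal protein genes in sum.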

How the data were processed

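scRNA-seq was measured in 1 DMSO and 1 YM library. The deposited matrices hold raw UMI counts of every barcode, which the authors made with Cell Ranger on GRCz11 (5.0.1 per the submitters' processing notes, 4 in the file headers). Deposited gene and barcode lists (other) hold no measurement.

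The members and lists were chosen with earlier results of these data known. Cells were called by the order-of-magnitude rule and a test of barcodes of at least 500 UMIs against the near-empty profile (10000 simulations, FDR 0.01), then limited to 200 to 3000 (DMSO) or 3500 (YM) genes and less than 5% mitochondrial UMIs. Called barcodes contained 88.8% and 91.3% of the 25340682 and 33649382 UMIs. Seurat 5.3.0 in R 4.3.3 clustered 2000 variable genes, without the members, the associated genes and 85 patterning genes, on 30 components at a resolution of 0.8, with S and G2M scores regressed. Clusters were named from fixed markers, and 48 cells stayed unnamed. A muscle-like cluster of 6 YM and 0 DMSO cells was not compared as a class. The unnamed and the muscle-like cells are part of the sums over all kept cells. No doublets were removed, and the cells of highest Scrublet score (scanpy 1.11.5) were left out as an alternative.

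UMIs were summed per library and class. log2 ratios of YM to DMSO have exact conditional binomial intervals, CPM exact Poisson and shares exact Clopper-Pearson intervals. PCR duplicates are removed by UMIs, and intervals cover counting error only. Every member could be named, and its ratio was counted with a mean of at least 20 CPM over the 2 libraries. Outside the rule only associated genes, markers, heat shock genes and, after their values were seen, PSMD2 and PSMA2 were named. A member listed at 0 was given a limit of 3 counts. TMM factors came from edgeR 4.0.16. The ratios were tested on simulated data with 200 changed genes. Motifs in promoters and member sequences were not analysed here.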

Additional observations from a re-analysis of the deposited data

Results flagged for a closer look

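The core particle genes of epidermal-like cells differed in direction from those of the 6 crest classes. Their summed log2 ratio of YM to DMSO was 0.22 (0.045 to 0.39), from 571 UMIs in 47 DMSO cells and 551 UMIs in 48 YM cells, while all 6 crest classes were below 0. The difference was not tested, since each treatment is 1 library. In the same cells the median of all genes was 0.045, ribosomal protein genes were higher (0.13) and immediate early genes were higher (0.79). The part of these in the result was not tested.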

How the results depend on the processing

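No paired analysis was possible because each treatment is 1 library, and for the same reason no library could be left out. Promoter motifs were not run. The core median of -0.23 became -0.17 with TMM factors from edgeR, -0.20 with the UMI total without ribosomal protein and mitochondrial genes, and -0.22 with the 6 crest classes weighted equally. The regulatory median of -0.28 became -0.22 and -0.25 under the same scalings, -0.26 when thinned and -0.26 with ranges of UMIs per cell weighted as in DMSO. The count of 21 members lower by the fold (7.78% of all genes) became 11 with TMM factors (3.73% of all genes). It became 37 with a fold of 0.15 and 3 with a fold of 0.40. The share of all genes past these other folds was not computed, so these counts cannot be read against it. With a minimum of 50 CPM, the core to regulatory ratio became 1.82 in DMSO and 1.88 in YM cells, since fewer genes were summed. *psmd2* turned to -0.027 once summed with PSMD2. Weighting classes or depth and summing features in capitals were chosen after seeing the data. No other member past the fold changed sign under any alternative run, apart from *psmg2*, which is under the fold, and 536 values of single members stayed within the counting interval while 13 moved past it. At a resolution of 0.3 no ventral arch-like class formed, and the core median of dorsal arch 2-like cells was -0.30. Counts of *psmb8a*, *psmb9a*, *psme1* and *psme2* were too few to tell absence from low level.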
